A study of Homo sapiens with 2 samples.

Results

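The genes described here are 10 genes of the epidermal differentiation complex measured in A427 cells. A427 is an established line from a human lung carcinoma of the non-small cell type, and it forms spheres in suspension as well as attached cultures. They are the small proline-rich genes SPRR2A, SPRR2D and SPRR1B, the keratinocyte proline-rich gene KPRP, and the S100 genes S100A2, S100A4, S100A6, S100A10, S100A11 and S100A16, taken by symbol from a table of 23686 genes. They were selected on their ratios between the 2 libraries and on their family, so those ratios are given as a description and support nothing. Poly(A) RNA was sequenced in 1 library of adherent cells and 1 library of floating, sphere-forming cells, both of the same line and both in RPMI 1640 with 5% fetal bovine serum. The sample labels give the genotype of both as WT, while the series title calls the cells CTNNB1-mutated. With 1 library per growth form there is no replicate, and no p-value is given.

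Small proline-rich proteins and KPRP are made by keratinocytes late in differentiation, and transglutaminases cross-link them, with involucrin and loricrin, into the cornified envelope that seals the outer layers of skin. S100 proteins are small calcium-binding proteins that work mostly as dimers and bind annexins, myosin and other partners when calcium rises. Genes of both families lie side by side in one stretch of chromosome 1. In simple and glandular epithelia the S100 genes are widely expressed, whereas SPRR genes are mainly genes of stratified and stressed epithelia.

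The adherent library held 26384670 reads assigned to genes and the floating library 27148842. A gene was compared if it reached 1 CPM (reads per 1000000, after scaling) in either library or in both, which 13131 genes did. In the adherent library 1 CPM stood for 26.3 reads. Of the 10 genes, 8 were compared. SPRR1B and S100A16 fell short, and KPRP passed through the floating library alone. A gene is called higher or lower where its ratio is at least 2-fold and its 95% counting interval excludes no difference. That rule called 1.28% of all compared genes higher and 0.754% lower in floating cells, and the interval alone lay above 0 (log2) for 25.5% and below it for 25.6%. Intervals cover counting error only and leave out how cultures vary.

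The copies of SPRR2 have almost the same coding sequence, which is shown first because it decides how far a read can be assigned to one copy. The coding sequences below, of 219 bases each, are those of GENCODE v29 transcripts, 5′ to 3′, and capitals mark bases at which a copy differs from SPRR2D.
SPRR2D: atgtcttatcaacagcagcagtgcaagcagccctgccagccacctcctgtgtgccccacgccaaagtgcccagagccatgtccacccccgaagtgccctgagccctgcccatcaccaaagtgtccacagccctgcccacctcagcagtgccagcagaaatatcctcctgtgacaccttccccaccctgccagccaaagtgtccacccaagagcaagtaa
SPRR2A: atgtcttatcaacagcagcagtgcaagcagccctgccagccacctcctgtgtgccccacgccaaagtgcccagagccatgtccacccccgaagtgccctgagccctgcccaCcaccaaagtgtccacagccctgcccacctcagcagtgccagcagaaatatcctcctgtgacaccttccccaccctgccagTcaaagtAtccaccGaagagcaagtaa
SPRR2E: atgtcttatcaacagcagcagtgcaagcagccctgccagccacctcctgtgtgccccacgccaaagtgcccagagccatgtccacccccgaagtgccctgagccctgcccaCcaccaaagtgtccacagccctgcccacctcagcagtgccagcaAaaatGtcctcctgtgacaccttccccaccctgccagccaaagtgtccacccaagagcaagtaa
SPRR2A differed from SPRR2D at 4 bases (98.2% identity) and SPRR2E differed from it at 3 (98.6%). SPRR2A and SPRR2B, which is not shown, differed at 1 base. The longest stretch without a difference between SPRR2A and SPRR2D was 111 bases. Over the whole transcripts, 32.7% of the 50-base windows of SPRR2A and 33.5% of those of SPRR2D occurred in a transcript of another gene. For SPRR2E the share was 25.4%. The remaining windows occurred in no other annotated gene. KPRP, S100A2, S100A4, S100A6, S100A10 and S100A16 shared no such window with any other gene, S100A11 shared 2.2% and SPRR1B 4.38%, the latter with SPRR1A. The deposited estimates of SPRR2A, SPRR2D and SPRR2E carry decimals, so values of single copies below rest on the authors' division of shared reads, which the counting intervals do not cover.

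SPRR2D and SPRR2A, precursors of the cornified envelope, were higher in floating cells. SPRR2D had 160.7 estimated reads in adherent and 747.6 in floating cells, that is 26.98 and 118.2 TPM (transcripts per 1000000, a level per transcript length). Its ratio was 4.48-fold (interval 3.78 to 5.36). SPRR2A had 125.3 and 457.7 estimated reads, or 21.27 and 73.16 TPM, and was 3.53-fold higher (2.90 to 4.35). The floating library was the higher one for both copies, and the intervals of the ratios of SPRR2A and SPRR2D overlapped. SPRR2E, a further copy that is not among the 10 genes, had 40.5 and 71.96 estimated reads and was 1.73-fold higher (1.17 to 2.63), short of the 2-fold rule. Its interval lay below those of SPRR2A and SPRR2D.

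Summed over all 7 symbols that start with SPRR2, estimated reads were 333 in adherent and 1285 in floating cells. The ratio of the sum does not depend on how reads were divided among copies, and it was 3.73-fold (interval 3.30 to 4.22), at 56.26 and 204.2 TPM. SPRR2A and SPRR2D held 85.9% of the summed reads in adherent and 93.8% in floating cells. SPRR2D alone held 48.3% and 58.2%, SPRR2A 37.6% and 35.6%, and SPRR2E 12.2% and 5.60%. SPRR2B (2.25 and 6.73 estimated reads), SPRR2F (3.20 and 1.06) and SPRR2G (1 and 0) were near the limit of detection, and SPRR2C, annotated as a pseudogene, had 0 reads in both. Without SPRR2A and SPRR2D, the other copies together had 47 and 80 reads, 1.64-fold higher (1.13 to 2.41).

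The SPRR genes outside the SPRR2 group were almost silent. SPRR1B, another envelope precursor, had 0 reads in adherent cells and 1 in floating cells, and SPRR1A had 1 and 3, so no ratio is given. SPRR3 and SPRR4 had 0 reads in both libraries. For a gene with 0 reads the upper limit was 0.114 CPM (adherent library) and 0.1102 CPM (floating library).

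KPRP, a proline-rich keratinocyte protein that takes part in the epidermal barrier, had 7 reads in adherent and 43 in floating cells, at 0.24 and 1.38 TPM. Its ratio was 5.61-fold, with a wide interval of 2.65 to 15.64. Its level in floating cells remained far under that of SPRR2A, whose TPM there was 73.16. Its log2 ratio of 2.49 lay above the 2.16 of SPRR2D, but with a prior count of 5 it was 1.95 against 2.13.

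**Figure D1:**
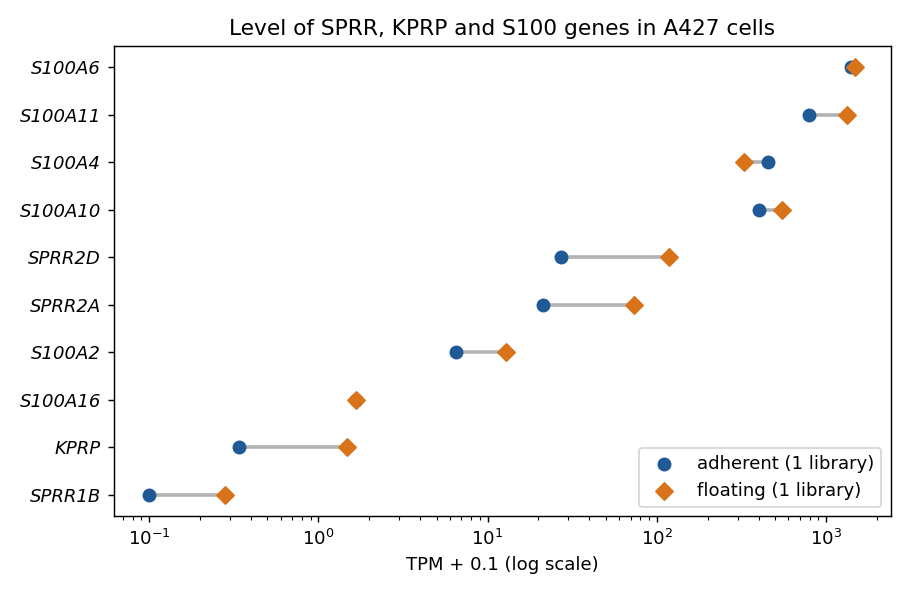
TPM + 0.1 (log axis) of each of the 10 genes in the adherent (blue circles) and floating (orange diamonds) library, 1 library each, ordered by the adherent level. S100A6 and S100A11 stand at the top, SPRR2D and SPRR2A move furthest to the right among genes above 10 TPM in both libraries, and S100A4 is the gene whose floating point lies clearly to the left.

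Of the S100 genes, S100A6, S100A11, S100A10 and S100A4 stood at higher levels than SPRR2D and SPRR2A in both libraries, with smaller ratios, while S100A2 and S100A16 stood lower. S100A6 (calcyclin), which binds the ubiquitin ligase adaptor CACYBP, had 8404 reads in adherent and 9426 in floating cells, at 1408 and 1488 TPM. It was 1.08-fold higher in floating cells (interval 1.05 to 1.12). S100A11, a partner of annexin A1, had 3841 and 6844 reads, at 792.0 and 1331 TPM, and was 1.72-fold higher (1.66 to 1.79). This was the largest difference in TPM of the 10 genes, 539.3 TPM. S100A10, which forms a complex with annexin A2 at the plasma membrane and does not need calcium to do so, had 4280 and 6191 reads, at 401.8 and 546.0 TPM, and was 1.40-fold higher (1.35 to 1.45). None of these 3 genes reached 2-fold, and the intervals of their ratios did not overlap one another.

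S100A4, which binds non-muscle myosin and is known as a metastasis-associated protein, went the other way. It had 1738 reads in adherent and 1317 in floating cells, at 453.7 and 325.6 TPM, so floating cells were 1.37-fold lower, with an interval of 1.27 to 1.47. It was the only compared gene of the 10 with an interval below 0. S100A4 lay above S100A10 in adherent cells and below it in floating cells, and the counting intervals of both levels were apart in each library.

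S100A2, an S100 gene of basal and squamous epithelia, had 61 and 129 reads, at 6.43 and 12.79 TPM. Its ratio of 2.04-fold (interval 1.496 to 2.82) lay just past the 2-fold rule, and it missed the rule when computed from TPM, at a log2 ratio of 0.98, or with 5 as the prior count, at 0.97. S100A16, a broadly expressed member, had 17 and 18 reads, at 1.57 and 1.56 TPM. The interval of its ratio ran from 0.498-fold to 2.11-fold, so a 2-fold difference in either direction was not excluded at this depth.

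**Figure D2:**
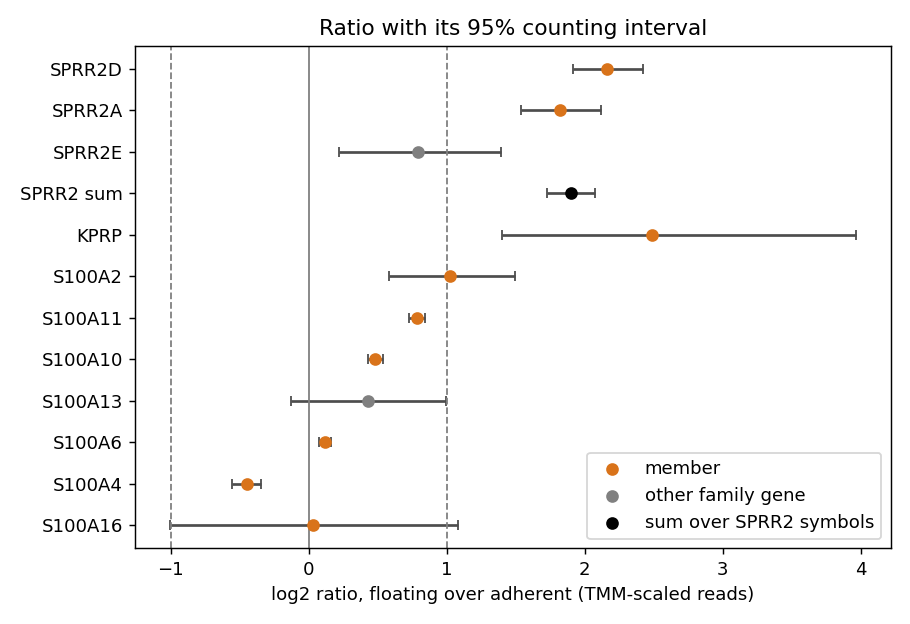
Log2 ratio of floating over adherent cells on scaled reads, 1 library each, with bars for the 95% counting interval and dashed lines at 2-fold, for the members with more than 3 reads (orange), SPRR2E and S100A13 (grey) and the SPRR2 sum (black). SPRR2D, SPRR2A, KPRP and S100A2 lie past the upper line, S100A4 lies left of 0, and the intervals of the abundant S100 genes are narrow.

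In adherent cells the order of levels per transcript length was S100A6, S100A11, S100A4, S100A10, SPRR2D, SPRR2A, S100A2, S100A16, KPRP and SPRR1B. The counting intervals of neighbours in that order overlapped for SPRR2D and SPRR2A (22.97 to 31.48 and 17.70 to 25.34 TPM). SPRR1B, with 0 reads in adherent cells, had no interval there to set beside that of KPRP. In floating cells S100A10 and S100A4 changed places, SPRR2D (109.9 to 127.0 TPM) stood apart from SPRR2A (66.61 to 80.18 TPM), and KPRP (0.999 to 1.86 TPM) overlapped both S100A16 (0.925 to 2.47 TPM) and SPRR1B (0.00456 to 1.00 TPM). By TPM, S100A6 ranked 103rd of all genes in adherent and 95th in floating cells, S100A11 168th and 110th, S100A10 338th and 250th, and S100A4 298th and 444th. SPRR2D moved from rank 5859 to 1403 and SPRR2A from 6804 to 2410.

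Of the 8 compared genes, 4 were called higher (SPRR2A, SPRR2D, KPRP and S100A2) and 0 lower, against 1.28% and 0.754% of all compared genes. The interval lay above 0 for 7 and below it for 1, and the median log2 ratio was 0.90, against -0.005 over all compared genes. Nothing is read from these counts, because the genes were chosen with these ratios in view. KPRP ranked 13th, SPRR2D 20th, SPRR2A 43rd and S100A2 161st from the highest ratio among 13131 genes. Over the 10139 genes of at least 10 CPM in one library, SPRR2D ranked 5th, SPRR2A 11th, S100A11 76th and S100A10 267th.

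**Figure D3:**
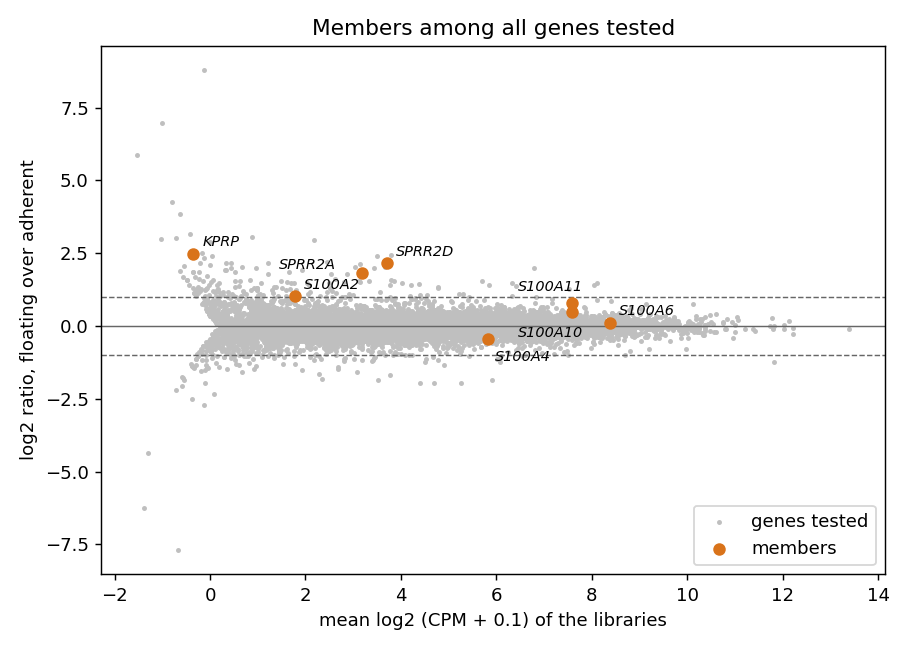
Log2 ratio of floating over adherent cells against the mean log2 (CPM + 0.1) of the libraries for all 13131 genes compared (grey) and the 8 compared members (orange), with dashed lines at 2-fold. SPRR2A and SPRR2D lie above most genes of similar level, KPRP sits at the low-count edge where ratios scatter widely, and S100A6 lies near 0.

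The whole S100 family was dominated by the same few genes in both libraries. Of 21 S100 genes in the table, S100A6, S100A11, S100A10 and S100A4 made up 99.3% of the summed S100 TPM in adherent and 99.2% in floating cells. The sum was 3077 TPM and 3721 TPM. Within it, the share of S100A6 was 45.8% in adherent and 40.0% in floating cells, that of S100A11 25.7% and 35.8%, that of S100A10 13.1% and 14.7%, and that of S100A4 14.7% and 8.75%. S100A13, the only other S100 gene compared, had 48 and 67 reads and a log2 ratio of 0.43 with an interval from -0.12 to 1.00. S100A5 (26 and 25 reads), S100A3 (10 and 7) and S100A1 (6 and 7) were too low to compare.

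Of the other S100 genes, 11 had at most 3 reads in each library. S100A8, S100A12, S100A7A, S100A7L2, S100B, S100G and S100Z had 0 reads in both libraries. S100A9 had 0 and 2 reads, and S100A7, S100A14 and S100P had 0 and 1 each. No ratio is given for these. Over the S100 list, 1 of 6 compared genes was higher (S100A2) and 0 lower past the rule, with intervals above 0 for 4 and below for 1 and a median log2 ratio of 0.46. For the SPRR list, 2 of 3 compared genes were higher and 0 lower (median 1.82). Over all compared genes, 1.28% were higher and 0.754% lower, with 25.5% of intervals above 0, 25.6% below and a median of -0.005. Both lists consist mostly of the genes chosen here (5 of 6 and 2 of 3).

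All 10 genes lie in one stretch of chromosome 1, and their neighbours there were mostly silent. RefSeq lists 62 protein-coding genes in order from S100A10 to S100A13, of which 60 were found in the table. Of these, 29 had 0 reads in both libraries and 45 had at most 3 reads in each. Only 10 were compared, the 8 genes described here, SPRR2E and S100A13. The list of other envelope genes of the complex, which also takes in their neighbours PGLYRP3, PGLYRP4 and SMCP, had 35 genes in the table. KPRP was the only one of the 35 to be compared, 24 had 0 reads in both libraries and 33 had at most 3 in each. TCHH, the gene for the hair follicle protein trichohyalin, had 7 and 6 reads. The genes with ratios above 0 were not contiguous. S100A4 lies between S100A6 and S100A2 in the gene order, with only S100A5 and S100A3 among them, and its ratio was below 0 while theirs were above it.

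**Figure D4:**
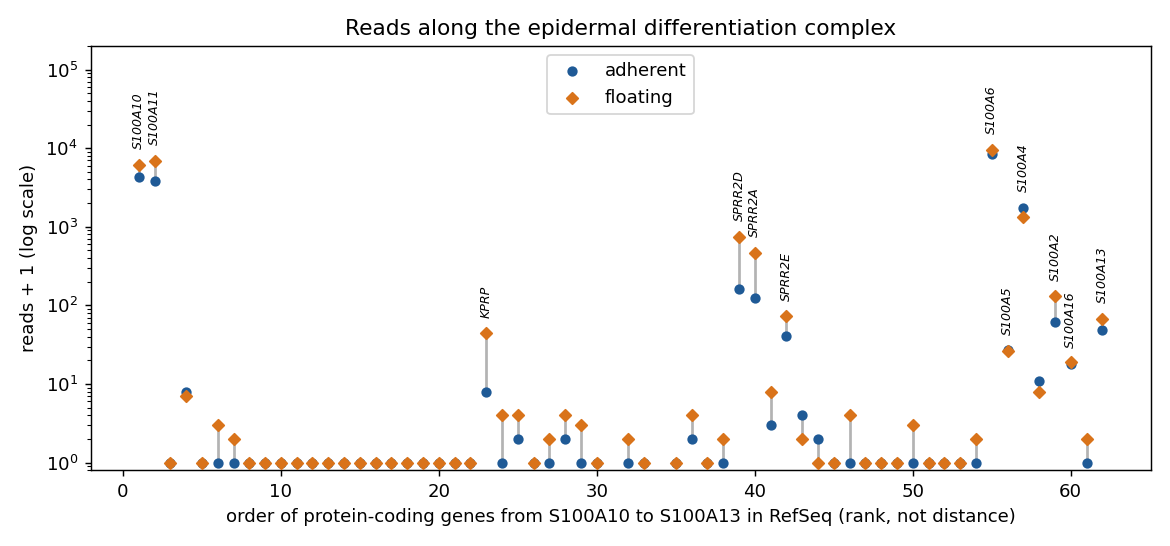
Reads + 1 (log axis) in the adherent (blue circles) and floating (orange diamonds) library for 60 protein-coding genes in their RefSeq order from S100A10 to S100A13, with names for genes of more than 15 reads. Most genes lie on the baseline, and reads are found at S100A10 and S100A11 on one side, at KPRP and the SPRR2 copies in the middle and at S100A6 to S100A13 on the other side.

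Sequence upstream of the start sites is shown for SPRR2A, KPRP and S100A2, which were called higher, and for SPRR2B and SPRR2F, copies of SPRR2A with few reads. The sequences are the 250 bases before the start in RefSeq on GRCh38.p14, a build other than the hg19 named for the deposited tables, which give no coordinates. They run 5′ to 3′ on the strand of the gene, and capitals mark matches on either strand to TGANTCA (the site of AP-1, the FOS and JUN dimer), AGGAAG (ETS factors), TTTGCAT (part of the octamer of POU factors) and TATAAA (the TATA box).
SPRR2A, chr1:153057513-153057762, minus strand: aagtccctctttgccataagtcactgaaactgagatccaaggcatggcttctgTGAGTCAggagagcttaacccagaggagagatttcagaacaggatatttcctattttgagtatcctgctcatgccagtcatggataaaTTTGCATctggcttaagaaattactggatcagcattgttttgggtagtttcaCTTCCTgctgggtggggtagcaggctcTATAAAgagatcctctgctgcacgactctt
SPRR2B, chr1:153071612-153071861, minus strand: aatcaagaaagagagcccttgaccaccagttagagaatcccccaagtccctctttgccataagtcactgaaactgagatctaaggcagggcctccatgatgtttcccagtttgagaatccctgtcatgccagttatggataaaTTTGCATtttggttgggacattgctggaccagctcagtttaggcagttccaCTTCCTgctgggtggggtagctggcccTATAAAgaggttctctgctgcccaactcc
SPRR2F, chr1:153113517-153113766, minus strand: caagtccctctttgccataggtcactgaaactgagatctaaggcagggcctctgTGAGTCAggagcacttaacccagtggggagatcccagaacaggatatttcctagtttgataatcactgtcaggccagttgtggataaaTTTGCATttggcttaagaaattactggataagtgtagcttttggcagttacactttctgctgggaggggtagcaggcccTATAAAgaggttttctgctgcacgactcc
KPRP, chr1:152757775-152758024, plus strand: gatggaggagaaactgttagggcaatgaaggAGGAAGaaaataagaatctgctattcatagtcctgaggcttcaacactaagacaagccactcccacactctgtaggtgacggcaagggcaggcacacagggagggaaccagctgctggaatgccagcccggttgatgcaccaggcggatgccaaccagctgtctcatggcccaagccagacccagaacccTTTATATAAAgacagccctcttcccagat
S100A2, chr1:153565845-153566094, minus strand: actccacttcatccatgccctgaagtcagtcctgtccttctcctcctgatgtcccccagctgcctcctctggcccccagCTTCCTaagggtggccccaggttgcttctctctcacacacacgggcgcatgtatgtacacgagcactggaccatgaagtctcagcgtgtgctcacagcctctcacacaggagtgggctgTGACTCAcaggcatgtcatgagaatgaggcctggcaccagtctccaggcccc
S100A2 has a second start site in RefSeq, not shown, with no match to any of the 4 motifs. SPRR2A held all 4 motifs, SPRR2B lacked TGANTCA and SPRR2F lacked AGGAAG. In KPRP the TATAAA match on one strand overlaps a match on the other.

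Upstream sequence was found for 9 of the 10 genes, at 11 start sites, and not for SPRR2D. It was also not found for SPRR2E, so SPRR2A is the only SPRR2 copy shown that was compared. TGANTCA occurred at 3 of the 11 start sites (SPRR1B, SPRR2A and 1 of 2 of S100A2), against 6.57% of 35116 RefSeq promoters of the same length. AGGAAG occurred at 8 (28.7% of all promoters), TATAAA at 3 (10.7%) and TTTGCAT at 1, in SPRR2A (3.94%). Over the 28 genes of these families with upstream sequence, KPRP included, 10 held TGANTCA, 17 AGGAAG, 18 TATAAA and 3 TTTGCAT. S100A6 and S100A11 held none of the 4. SPRR1B, with 0 and 1 reads, had 2 matches to TGANTCA. SPRR2F, with 3.20 and 1.06 estimated reads, and SPRR2G, with 1 and 0, had 1 each, as did SPRR2A. A match in a sequence describes its letters and is not a measured binding site.

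Genes listed for transglutaminases and for the scaffold and other parts of the envelope had ratios on both sides of 0. Of 15 such genes, 10 were compared, and 0 were higher and 0 lower past the 2-fold rule, against 1.28% and 0.754% of all compared genes (5 intervals above 0, 3 below, median 0.15). TGM2, the tissue transglutaminase, was at 487.2 and 807.8 TPM in adherent and floating cells, with a log2 ratio of 0.76 (interval 0.74 to 0.79), the farthest from 0 of this list. TGM1, the transglutaminase of the keratinocyte membrane, had 44 and 46 reads, with a log2 ratio of 0.01. TGM3 and TGM5, the other transglutaminase genes of the list, were too low to compare. SERPINB2, a serpin that is cross-linked into the envelope, was at 1536 and 1951 TPM (log2 ratio 0.39). The plakin genes EVPL and PPL, which lay the first scaffold of the envelope, had log2 ratios of -0.21 and -0.29.

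Genes for S100 binding partners and receptors went both ways. Of 18, 17 were compared, with log2 ratios from -0.75 to 0.41, 7 intervals above 0, 8 below and a median of 0.01. None passed the 2-fold rule in either direction, against 1.28% higher and 0.754% lower over all compared genes. ANXA1, the annexin bound by S100A11, was at 7567 and 6794 TPM in adherent and floating cells (log2 ratio -0.11, interval -0.13 to -0.10), while S100A11 itself had a log2 ratio of 0.78. ANXA2, the partner of S100A10, was at 615.8 and 670.8 TPM, with a log2 ratio of 0.17 (0.13 to 0.20), below the 0.48 of S100A10. CACYBP, the partner of S100A6, had a log2 ratio of 0.34, and MYH9, the myosin heavy chain bound by S100A4, one of -0.04. CALM2, one of the calmodulin genes, was at 854.1 and 957.8 TPM (log2 ratio 0.21). CD36, with 59 and 36 reads, was the farthest from 0 (log2 ratio -0.75).

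Among 26 regulators of keratinocyte differentiation genes, 16 were compared, of which 3 were called higher and 0 lower (10 intervals above 0, 2 below, median 0.38). Of all compared genes, 1.28% were called higher and 0.754% lower, with 25.5% of intervals above 0 and 25.6% below. The 3 were FOS (110 and 496 reads, log2 ratio 2.12), FOSB (46 and 118 reads, 1.301) and KLF4, a zinc finger factor of barrier formation (19 and 41 reads, 1.04). Like KPRP, KLF4 passed the limit of 1 CPM through the floating library alone. KLF4 also missed 2-fold when computed from TPM (0.91) or with 5 as the prior count (0.89). JUN had a log2 ratio of 0.93, GRHL3 one of 0.72, CEBPB one of 0.69 and FOSL1 one of 0.59, all without reaching 2-fold. The ratios of JUNB (0.18) and FOSL2 (-0.06) were nearer 0. JUND, at 149.6 and 119.1 TPM, had a log2 ratio of -0.29 and NFE2L2 one of -0.17. TP63, the master regulator of stratified epithelia, had 4 reads in adherent and 0 in floating cells.

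Most genes that mark a keratinocyte were at or near 0 in both libraries. Of 18 keratinocyte and squamous markers, 3 reached 1 TPM (KRT10, DSG1 and DSC3), and KRT5, KRT14, KRT1, KRT6A and KRT16 had 0 reads in both libraries. Their summed level was 61.86 TPM and 51.28 TPM in adherent and floating cells, of which DSC3, a desmosomal cadherin, gave 43.98 and 31.93. The labelled origin was checked by other markers: of 6 epithelial markers, EPCAM (615.3 and 581.8 TPM), KRT8 (326.6 and 581.1 TPM) and KRT18 (342.5 and 612.5 TPM) were abundant, CDH1 was at 18.85 and 13.94 TPM, and KRT19 (0.5 and 1.3 TPM) and KRT7 (0.21 and 0.15 TPM) were low. In addition, 5 of 6 lung alveolar and club cell markers were under 1 TPM, with SFTPA1, SFTPC and SCGB1A1 at 0 reads. Of 7 leukocyte markers 2 reached 1 TPM, CD68 (16.88 and 31.46 TPM) and PTPRC (2.84 and 1.95 TPM). The sum of the 7 was 20.13 and 34.23 TPM, mostly from CD68. LYZ and CD3E were at 0 reads. The fibroblast sum was 14.88 and 8.75 TPM, nearly all from COL1A1, and the endothelial sum 0.14 and 0.42 TPM. The part of other cells in the S100 and SPRR ratios was not tested. In bulk RNA, more cells that express a gene and more RNA per cell cannot be told apart.

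The genes whose ratio was nearest to that of the SPRR2 sum, among 10139 genes of at least 10 CPM in one library and with all SPRR symbols left out, were EGR1 (log2 ratio 1.999), SGK223 (2.003), SLC30A1 (1.78) and NTSR1 (1.78), against 1.90 for the sum. With 1 library per growth form, likeness rests on a single ratio.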

How the data were processed

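Poly(A) RNA of A427 cells was sequenced in 2 libraries, 1 adherent and 1 floating. Per the labels' protocols, extraction included DNase and the library kit was KAPA mRNA HyperPrep. Per the submitters' processing notes, RSEM 1.3.3, STAR 2.5.3a and FastQC 0.11.1 were run on hg19. Not given in the sources used here are the annotation, the read length and whether strand was used. The authors deposited estimated counts, not normalized, and TPM, scaled by them, for the same 23686 symbols.

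Estimated counts were rounded to whole numbers (SPRR2 sums before rounding) and scaled by TMM (edgeR 4.0.16, R 4.3.3). The log2 ratio used (count + 0.5) per effective library size, with an exact Clopper-Pearson 95% interval conditional on the summed reads. Intervals of a level are exact Poisson intervals. Reads without molecular identifiers are not independent molecules, so intervals and the limit of 3 reads for a count of 0 cover counting error only. No test across genes was run, as each group has 1 library. On a simulated pair of libraries for this comparison (13076 genes), 29 of 50 genes changed 2-fold and 50 of 50 changed 3-fold were called, with 11 of 12876 unchanged genes. The simulated counts were Poisson draws around the mean level of each gene over both libraries. Only genes of at least 2 CPM on average were changed, which leaves out genes as low as KPRP. Cultures did not vary in it, so these figures are not an error rate for the calls on the real libraries.

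The 10 genes, the gene lists and the thresholds were chosen with earlier results of these data known. Named from each list were genes past the 2-fold rule, the 2 of highest mean TPM and the one farthest from 0, beside all SPRR and S100 genes and the 4 genes nearest the SPRR2 ratio. TGM1, TGM3, TGM5, EVPL, PPL, ANXA2, CACYBP, MYH9, JUN, JUNB, FOSL1, FOSL2, GRHL3, CEBPB, TP63 and TCHH were chosen after the values were seen. So was the gene order from S100A10 to S100A13. Alternatives were scaling by library totals, by the upper quartile or by size factors from DESeq2 1.42.0, the deposited TPM (log2 of TPM + 0.1), 5 as the prior count, a minimum of 5 CPM, no filter, and other call thresholds. Shared windows came from GENCODE v29 and upstream sequences from RefSeq. In GENCODE v29, exons of 9 of the 10 genes overlap no other gene, and S100A6 overlaps one on the opposite strand that was not analysed here. Scripts ran under Python 3.11.15 (pandas 2.3.3, scipy 1.17.1, numpy 2.4.6).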

Additional observations from a re-analysis of the deposited data

How the results depend on the processing

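Each log2 ratio of a compared gene and of the SPRR2 sum kept its direction and stayed inside its counting interval under every alternative that gave a value: DESeq2 size factors, library totals, the upper quartile, TPM, a prior count of 5, no filter and a minimum of 5 CPM (which leaves out KPRP and S100A2). Calls were kept as well, except that S100A2 missed 2-fold on TPM and with a prior count of 5. With a minimum of 5 CPM, 2 of the 10 genes were called higher instead of 4, and at 4-fold 2 were; the first is due to fewer genes being compared and the second to the stricter threshold. Medians of gene lists moved by more than 0.1 (log2) mainly where the filter changed which genes entered. With no filter the SPRR list had a median of 1.35, other envelope genes 1.54, regulators 0.585 and keratinocyte markers 0.299. With a minimum of 5 CPM the SPRR list had 1.99, the S100 list 0.30 and regulators 0.179. The other envelope genes, of which KPRP alone was compared, had 2.12 on TPM and 1.95 with a prior count of 5. Calls within lists moved with the threshold. Among regulators 3 genes were higher, 7 at 1.5-fold, 4 with no filter, 2 on TPM or with a prior count of 5 (where KLF4 missed 2-fold), and 1 at 4-fold or with a minimum of 5 CPM. In the S100 list it was 1 gene, 2 at 1.5-fold and 0 at 4-fold, on TPM, with a prior count of 5 or with a minimum of 5 CPM. The SPRR list went from 2 to 1 at 4-fold. At 1.5-fold 1 gene of the crosslinker and scaffold list (TGM2) was higher and 1 S100 partner lower, against 0 and 0. No paired analysis was possible because each growth form has 1 library. Leaving out a library was not possible for the same reason. Depth limits SPRR1B and S100A16, and most of the gene stretch around them.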
